A study of Mus musculus with 6 samples.

Results

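The proteasome, the protease that degrades ubiquitin-tagged proteins, was followed through the cells of mouse pancreatic tumours by the transcripts of its subunits and its dedicated partners. The members were all gene symbols that begin with Psm, continue with a letter from a to g and end in a number, which gave 48 of the 32285 genes in the deposited gene list. By part of the complex they were 8 alpha ring genes, 7 constitutive beta ring genes, 3 induced beta genes, 1 thymic beta gene, 6 base ATPases, 14 regulatory non-ATPases, 4 activators, 1 inhibitor and 4 assembly chaperones. Psmb8, Psmb9, Psmb10, Psme1 and Psme2 formed the interferon-induced subset. The tumours grew in the pancreas of immunocompetent C57BL/6 mice after injection of KPC cells, a mouse pancreatic cancer line from a tumour model driven by Pdx1-Cre, which acts in the pancreas. The injected KPC cells either overexpressed mouse Mlkl (samples labelled OE-MLKL) or held the vector without it (samples labelled OE-Vector). Mlkl encodes the pseudokinase that ruptures the plasma membrane in necroptosis. Both groups therefore shared the KPC background, only the injected cells carried the construct, and the macrophages, neutrophils and lymphocytes came from the host. The comparison of the labels asks what MLKL in the cancer cells does to the tumour and its microenvironment. The labels name 3 samples in each group. The matrices of 1 OE-Vector and 3 OE-MLKL libraries were analysed, those of OE-Vector 2 and 3 were not analysed here, and the age of the mice is not in the labels.

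The core particle of the proteasome is a barrel of stacked rings, with alpha subunits as the outer gates and beta subunits inside, and proteolysis is carried out by the beta subunits encoded by Psmb5, Psmb6 and Psmb7. Under interferon gamma, newly made barrels take up Psmb8 in place of Psmb5, Psmb9 in place of Psmb6 and Psmb10 in place of Psmb7, and the resulting immunoproteasome favours the peptide ends that major histocompatibility complex class I molecules bind. Blood-derived cells carry much of it without stimulation. The regulatory particle, made of the base ATPases (Psmc genes) and the non-ATPases (most Psmd genes), recognises and unfolds ubiquitinated proteins. Psmd genes of assembly factors, such as Psmd10, are counted and summed with the non-ATPases here. Psme1 and Psme2 encode the PA28 alpha and beta caps, which interferon gamma also induces, Psme3 the nuclear PA28 gamma, Psme4 the PA200 cap, Psmf1 the inhibitor PI31 and Psmg1 to Psmg4 the chaperones of barrel assembly.

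The promoters of induced members and of constitutive counterparts are shown because the comparisons turn on these genes. Each sequence is the RefSeq window of 250 bases before to 50 bases after the transcription start on GRCm38.p6, written in the direction of transcription, and capitals mark a match to one of the motifs searched on both strands. The motifs were the interferon-stimulated response element (ISRE) GAAANNGAAA, the gamma-activated site (GAS) TTCNNNGAA and the antioxidant response element (ARE) TGACNNNGC, and the last is the element through which the factors encoded by Nfe2l1 and Nfe2l2 are known to act on constitutive subunits.
Psmb8, chr17:34197945-34198244, plus strand: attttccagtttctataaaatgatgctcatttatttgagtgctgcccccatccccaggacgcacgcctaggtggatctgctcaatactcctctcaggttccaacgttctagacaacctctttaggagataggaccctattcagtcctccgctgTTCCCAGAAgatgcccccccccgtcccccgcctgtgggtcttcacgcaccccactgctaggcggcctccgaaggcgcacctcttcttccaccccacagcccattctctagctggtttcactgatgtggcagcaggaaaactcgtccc
Psmb9, chr17:34187281-34187580, minus strand: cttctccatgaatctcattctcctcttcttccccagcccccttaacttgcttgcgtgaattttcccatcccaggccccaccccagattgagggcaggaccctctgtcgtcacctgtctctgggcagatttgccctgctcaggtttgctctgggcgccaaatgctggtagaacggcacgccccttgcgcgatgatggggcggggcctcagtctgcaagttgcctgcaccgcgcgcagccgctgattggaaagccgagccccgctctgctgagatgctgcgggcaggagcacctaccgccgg
Psme1, chr14:55578244-55578543, plus strand: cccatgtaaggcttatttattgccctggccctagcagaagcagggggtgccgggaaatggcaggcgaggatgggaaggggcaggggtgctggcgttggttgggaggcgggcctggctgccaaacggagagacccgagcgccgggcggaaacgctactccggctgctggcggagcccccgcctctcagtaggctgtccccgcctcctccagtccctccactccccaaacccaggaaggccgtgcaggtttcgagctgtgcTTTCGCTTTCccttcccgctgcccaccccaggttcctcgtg
Psmb5, chr14:54617946-54618245, minus strand: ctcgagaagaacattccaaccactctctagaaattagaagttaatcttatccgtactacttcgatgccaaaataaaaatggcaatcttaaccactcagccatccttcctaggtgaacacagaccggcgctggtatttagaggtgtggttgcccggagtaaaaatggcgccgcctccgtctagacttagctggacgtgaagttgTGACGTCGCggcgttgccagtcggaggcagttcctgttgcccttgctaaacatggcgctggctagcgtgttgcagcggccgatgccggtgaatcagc
Psmb6, chr11:70525107-70525406, plus strand: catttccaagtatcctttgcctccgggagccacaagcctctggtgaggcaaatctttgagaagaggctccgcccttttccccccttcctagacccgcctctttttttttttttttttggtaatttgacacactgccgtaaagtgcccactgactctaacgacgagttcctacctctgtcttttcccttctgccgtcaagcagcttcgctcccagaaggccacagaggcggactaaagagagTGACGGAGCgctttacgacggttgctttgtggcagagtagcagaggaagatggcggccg

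The Psmb8 window held a GAS match 97 bases before the start, the Psme1 window an ISRE match beginning 9 bases after the start, and the Psmb9 window none of the 3 motifs. The Psmb5 and Psmb6 windows held an ARE match each, 47 and 9 bases before the start. Windows of 40 members were in the table, and a gene was counted once if any of its windows held the motif. An ISRE match was found in 5 of them (Psmb3, Psmd4, Psmd9, Psme1 and Psmg4) against 3.99% of all 27025 genes in the table, a GAS match in 3 (Psmb8, Psmd2 and Psmg1) against 9.55%, and an ARE match in 6 (Psmb5, Psmb6, Psmc6, Psmd9, Psmd12 and Psme4) against 14.0% of genes. Among the 5 induced members the counts were 1, 1 and 0. These matches are descriptions of letters within the window and show neither binding nor its absence.

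All 48 members were found in the GENCODE annotation of GRCm38, on 16 chromosomes. Psmb8 (chr17:34197721-34201454, plus strand) lies in the class II region of the major histocompatibility complex next to the peptide transporter genes, 495 bases from Tap1 and 2072 bases from Tap2, and 9956 bases from Psmb9 (chr17:34181987-34187764, minus strand). Psmb9 overlaps the divergently transcribed Tap1 by 212 bases. Psme1 (chr14:55578123-55581529, plus strand) and Psme2 (chr14:55587441-55591113, minus strand) are 5911 bases apart, whereas Psmb10 lies alone among the induced genes at chr8:105935735-105938444 on the minus strand. A same-strand gene overlapped 9 members and an opposite-strand gene 18. For overlapping genes, and for Psme2, of which the mouse genome holds a retrocopy (Psme2b), how the counting assigned shared reads is not given in the sources used here.

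The libraries held between 150591289 and 169978362 UMIs (molecular tags, each counting a captured transcript once), and 13489 to 18808 cells per library were kept. Any 2 libraries shared 89 to 160 barcodes, at most 0.798% of the cell barcodes of a library. A cell was placed in a class when it carried at least 3 markers of that class and passed no other gate. This gave 2413 to 5887 cancer-like, 1679 to 2220 macrophage-like, 4332 to 6371 neutrophil-like, 479 to 761 T cell-like and 33 to 110 dendritic cell-like cells per library. Cells that passed more than one gate were left out, and made up 16.8% of OE-MLKL 3 against 3.31% to 7.65% of the other libraries. The cancer-like cells were much deeper than the neutrophil-like cells, with median depths per library of 11461 to 25132 against 741 to 1333 UMIs.

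The targeted gene was checked first. In cancer-like cells Mlkl stood at 16 CPM (UMIs per 1000000 UMIs of the class in that library) in the library labelled OE-Vector. The libraries labelled OE-MLKL held 8.66, 12.6 and 20.2 CPM, a mean of 13.8 ± 5.89 (SD, n = 3). The values overlapped, so the transcript counts did not bear out the label, and the groups are named by their labels only. Whether the 3' tags can see the transcript of the construct is not given in the sources used here.

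In cancer-like cells the members together made up 7107, 6217, 7045 and 5403 CPM in OE-Vector 1 and OE-MLKL 1, 2 and 3. All values for 4 libraries are given in that order throughout, and all means are ± SD over these 4 libraries. A 3' library gives each transcript a single tag, so that CPM values of different genes are compared without scaling by length. The barrel stood at 3505 ± 601 CPM and the regulatory particle at 2184 ± 193 CPM. The most abundant member was the alpha ring gene Psma7 at 542 ± 66.2 CPM, followed by Psmb1 of the constitutive beta ring at 369 ± 66.2 CPM and Psma3 at 344 ± 51.8 CPM, and the ranges of the last 2 overlapped. The other alpha ring genes, Psma8 aside, had means from 154 to 199.6 CPM, and the constitutive beta genes from 132 CPM for Psmb2 upwards. Of the base ATPases, Psmc3 was highest (174 ± 25.3 CPM) and Psmc2 lowest (77 ± 10.6 CPM). Of the non-ATPases, the ubiquitin receptor gene Psmd4 was highest (178 ± 26.7 CPM) and Psmd10, the gene of the assembly chaperone gankyrin, lowest (34.1 ± 7.36 CPM). Psme1 led the activators at 258 ± 48.7 CPM against 38.1 ± 5.87 CPM for Psme3. The inhibitor gene Psmf1 and the chaperone gene Psmg1 were sparse, at 26 ± 4.08 and 20.6 ± 5.02 CPM, whereas the chaperone gene Psmg4 reached 73.7 ± 16.3 CPM.

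Most of this order was shared by the host classes. Psma7 was the most abundant alpha ring gene, Psmc3 the most abundant base ATPase, Psme1 the most abundant activator and Psmg4 the most abundant chaperone in cancer-like, macrophage-like, neutrophil-like, T cell-like and dendritic cell-like cells alike. The beta ring differed, since Psmb1 led the constitutive genes in macrophage-like (229.8 ± 32.2 CPM) and T cell-like cells (347 ± 38.3 CPM), whereas Psmb3, a structural subunit, led in neutrophil-like cells at 269 ± 88 CPM against 154 ± 32.2 CPM for Psmb1. In all 4 host classes the mean level of the induced Psmb8 lay above that of the leading constitutive beta gene, at 297 ± 75 CPM in macrophage-like, 339 ± 80.8 CPM in neutrophil-like, 504 ± 82.2 CPM in T cell-like and 902 ± 212 CPM in dendritic cell-like cells.

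Tissue-restricted members were nearly silent. Psmb11, the catalytic subunit of thymic epithelial cells, was represented by 0 to 4 UMIs per library in each of these 5 classes and was too sparse for a test. Psma8, which replaces Psma7 in the testis proteasome, had 2, 2, 1 and 2 UMIs in cancer-like cells. In macrophage-like cells it had 15, 6, 14 and 19 UMIs, from far fewer UMIs in all. The pooled ratio of its CPM in macrophage-like over cancer-like cells was 47.7, with an exact 95% interval of 21.6 to 124 that covers counting error only. At 1.14 ± 0.379 CPM in macrophage-like cells, Psma8 remained far below the least abundant of the other alpha ring genes.

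Psmb8 and Psmb9 differed between cancer-like and host cells by larger factors than any other members except Psma8. Psmb8, which encodes the replacement for Psmb5, stood at 80.7, 21.8, 26.9 and 77.5 CPM in cancer-like cells. In macrophage-like cells it stood at 389, 206, 286 and 308 CPM and in neutrophil-like cells at 409, 234, 319 and 395 CPM. Every value of either host class lay above every cancer-like value. T cell-like cells held 571, 437, 579 and 429 CPM and dendritic cell-like cells 1175, 673, 938 and 821 CPM, and the dendritic cell-like values lay above those of all other classes in each library. The order of the means was dendritic cell-like, T cell-like, neutrophil-like, macrophage-like and cancer-like, and the ranges of the neutrophil-like and macrophage-like cells overlapped.

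Psmb9, the replacement for Psmb6, followed the same order with a deeper floor. It stood at 28.2, 5.21, 7.35 and 19.2 CPM in cancer-like, 210.2, 86.1, 115 and 125 CPM in macrophage-like and 245, 108, 135 and 195 CPM in neutrophil-like cells. T cell-like cells held 275, 166, 186 and 196 CPM and dendritic cell-like cells 860.0, 380.1, 481 and 476 CPM. The cancer-like cells of OE-MLKL 1 and 2 were the lowest of all, and the dendritic cell-like cells of OE-Vector 1 the highest. Psmb10, the replacement for Psmb7, broke the pattern. Its levels were 165, 47.8, 112 and 96.5 CPM in cancer-like, 162, 92.6, 169.9 and 93.3 CPM in macrophage-like, 156, 64, 116 and 122 CPM in neutrophil-like, 142, 78.2, 142 and 88.2 CPM in T cell-like and 144, 77, 147 and 83.4 CPM in dendritic cell-like cells. These ranges overlapped in all 5 classes.

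The genes of the PA28 cap were expressed in every class. Psme1 stood at 307, 191, 264 and 271 CPM in cancer-like, 394, 272, 363 and 364 CPM in macrophage-like and 275, 199, 278 and 327 CPM in neutrophil-like cells. It stood at 398, 335, 426 and 422 CPM in T cell-like and 1054, 832, 864 and 1031 CPM in dendritic cell-like cells. Only the dendritic cell-like range lay clear of the others. Psme2 stood at 244, 118, 175 and 168 CPM in cancer-like, 307, 105, 178 and 194 CPM in macrophage-like and 307, 117, 201 and 231 CPM in neutrophil-like cells. It stood at 287, 168, 268 and 199.5 CPM in T cell-like and 637, 369.8, 584 and 364 CPM in dendritic cell-like cells. OE-Vector 1 held the highest Psme2 value and OE-MLKL 1 the lowest in cancer-like, macrophage-like, neutrophil-like and T cell-like cells.

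**Figure D1:**
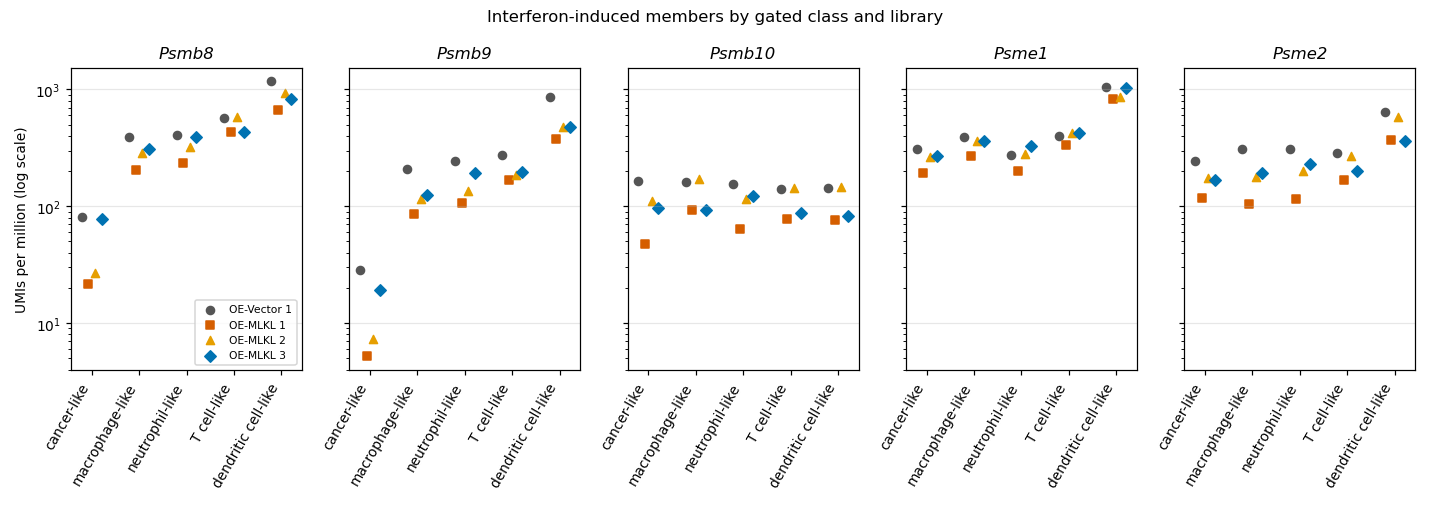
Levels of the 5 interferon-induced members in CPM (log axis) against the gated cell class, with 1 point per library and no error bars. Psmb8 and Psmb9 are lowest in cancer-like cells and highest in dendritic cell-like cells in every library, while Psmb10 lies between 47.8 and 169.9 CPM in all 5 classes.

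The constitutive counterparts Psmb5, Psmb6 and Psmb7 ran the other way or stayed level in macrophage-like, neutrophil-like and T cell-like against cancer-like cells. Psmb5 stood at 233, 187, 233 and 135 CPM in cancer-like, 151, 90.3, 122 and 74.2 CPM in macrophage-like and 151, 139, 167 and 96.6 CPM in neutrophil-like cells. Psmb6 stood at 257, 207, 254 and 149.8 CPM in cancer-like, 185, 105, 147 and 90.7 CPM in macrophage-like and 81.6, 103, 117 and 69 CPM in neutrophil-like cells. Within each library the cancer-like cells had the highest level of both genes among these 3 classes. Psmb7 stood at 146, 127, 165 and 98.8 CPM in cancer-like, 85.3, 73.2, 97 and 57.8 CPM in macrophage-like and 55.1, 56.5, 69.7 and 54.5 CPM in neutrophil-like cells, and again each library had its highest value in cancer-like cells. In T cell-like cells Psmb5, Psmb6 and Psmb7 averaged 164 ± 39.4, 158 ± 42.8 and 105 ± 25.2 CPM, and in dendritic cell-like cells 167 ± 51.6, 148 ± 48.6 and 124 ± 29.5 CPM.

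Psme3, which forms the nuclear cap, stood at 40.0, 30.2, 38 and 44.2 CPM in cancer-like, 50.8, 38.1, 54.7 and 52.6 CPM in macrophage-like and 30.3, 30.5, 31.1 and 31.8 CPM in neutrophil-like cells. It stood at 62.2, 48.2, 63 and 59.6 CPM in T cell-like and 68.3, 36, 83.5 and 55 CPM in dendritic cell-like cells. Neutrophil-like cells had the lowest mean and the smallest spread of the 5 classes.

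Classes were compared within libraries by edgeR's quasi-likelihood test on UMI counts summed per library and class, with the library as a term and Benjamini-Hochberg adjustment over all genes tested. A member is called higher or lower at an adjusted p under 0.05, and fold changes are fitted values after TMM scaling (a scaling that assumes most genes do not differ), given as log2 ± SE with n = 4 libraries. The labels do not tie the libraries to single mice, each library was treated as a separate tumour, and all p-values measure the spread between these libraries. The 3 comparisons against cancer-like cells share the same cancer-like counts.

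With TMM scaling, macrophage-like cells carried more transcripts of all 5 induced members than cancer-like cells, and fewer of most other members. In CPM, without TMM factors, Psmb10 was lower in macrophage-like cells in OE-Vector 1 and OE-MLKL 3, and Psme2 in OE-MLKL 1. Of the 47 members tested, 9 were higher and 28 lower, against 31.6% higher and 36.5% lower of all 15895 genes tested. The 10 not called were Psma4, Psmb2, Psmc3, Psmd1, Psmd2, Psmd6, Psmd10, Psmd13, Psme4 and Psmf1, and Psmb11 was too sparse. The members had a median log2 fold change of -0.33 against -0.092 for all genes. The called induced genes were Psmb9 (3.61 ± 0.25, or 12.2-fold), Psmb8 (2.94 ± 0.25, or 7.68-fold), Psme1 (0.65 ± 0.086), Psmb10 (0.58 ± 0.17) and Psme2 (0.32 ± 0.12). Psme2 passed narrowly (edgeR, adjusted p = 0.0445). Psme3, the counterpart of the PA28 genes, was also higher, by 0.58 ± 0.082. The other higher members were Psma8, Psmd8, a lid subunit (0.54 ± 0.089), and Psmg4 (0.35 ± 0.087). Psma8, counted among the 9, passed the low-count filter only through its macrophage-like counts. A call in the other direction was therefore not open to it.

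The members that were lower in macrophage-like cells spanned the whole particle, with 6 of 8 alpha ring genes, 6 of 7 constitutive beta genes, 5 of 6 base ATPases, 8 of 14 non-ATPases and 3 of 4 chaperones. The largest falls were those of Psma3 (-0.99 ± 0.10), Psmd12 (-0.78 ± 0.13), Psmd7 (-0.70 ± 0.090), Psmb5 (-0.65 ± 0.11), Psmc4 (-0.65 ± 0.087) and Psmc5 (-0.64 ± 0.097) on the log2 scale. Psmd12 and Psmd7 encode lid subunits, and Psmc4 and Psmc5 unfolding ATPases of the base. Psmb6 and Psmb7 fell with them, by 0.52 and 0.56. With library size alone in place of TMM, the split became 6 higher and 36 lower, against 25.9% higher and 45.2% lower of all genes, the median over all genes moved to -0.31, and Psmb10 and Psme2 were no longer called. Relative to the median of all genes the members stood at -0.24 under both scalings.

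With TMM scaling, neutrophil-like cells held more transcripts of all 5 induced members than cancer-like cells and fewer of most others. In CPM, without TMM factors, Psmb10 and Psme1 were lower in neutrophil-like cells in OE-Vector 1, and Psme2 in OE-MLKL 1. The higher induced members were Psmb9 (4.12 ± 0.22, or 17.4-fold), Psmb8 (3.29 ± 0.23, or 9.79-fold), Psme2 (0.62 ± 0.14), Psmb10 (0.56 ± 0.14) and Psme1 (0.44 ± 0.14). Of the 46 members tested, 6 were higher and 31 lower, against 34.8% higher and 40.4% lower of all 15847 genes. The 9 not called were Psma1, Psma2, Psmb2, Psmb5, Psmd4, Psmd8, Psmd10, Psmd13 and Psme3, and Psma8 and Psmb11 were too sparse, as in the next 2 comparisons. The remaining higher member was Psmb3, at 0.38 ± 0.16 with an adjusted p of 0.048 by edgeR. The median of the members was -0.67 against -0.16 for all genes.

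The regulatory particle was lower nearly throughout, with all 6 base ATPases and 10 of 14 non-ATPases called lower in neutrophil-like than in cancer-like cells. Psmd1, the large scaffold of the base, went from 112, 113, 124 and 124 CPM in cancer-like to 22.1, 23.3, 29.1 and 30.2 CPM in neutrophil-like cells. The 2 ranges were far apart in every library, and the log2 fold change was -1.81 ± 0.13, or 3.50-fold lower. Psmg2 (-1.47 ± 0.16), Psmd7 (-1.32 ± 0.16), Psmd9 (-1.23 ± 0.15), Psmc1 (-1.19 ± 0.13) and Psmd14 (-1.12 ± 0.14) followed. Psmd14 encodes the deubiquitinase of the lid and Psmg2 a chaperone of the alpha ring. All 4 chaperones and the inhibitor gene Psmf1 (-1.07 ± 0.15) were lower. The alpha ring had 5 of 7 tested genes lower and the constitutive beta ring 4 of 7, whereas Psmb5 (-0.13 ± 0.12) was not called. With library size alone the members split into 2 higher and 37 lower, against 27.4% higher and 48.8% lower of all genes, with only Psmb8 and Psmb9 still called higher among the induced members. The median over all genes then stood at -0.54, and the members remained at -0.51 relative to it.

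T cell-like cells held the same leading pair on a milder background. Psmb9 was higher than in cancer-like cells by 4.01 ± 0.28 on the log2 scale, or 16.1-fold, and Psmb8 by 3.47 ± 0.31, or 11.1-fold. Psme1 (0.59 ± 0.11), Psme3 (0.58 ± 0.11) and Psme2 (0.36 ± 0.11) were also higher. Psmb10 differed by 0.13 ± 0.15 and was not called (edgeR, adjusted p = 0.493). Of the 46 members tested, 5 were higher and 21 lower, against 26.5% higher and 33.1% lower of all 15957 genes. Psme4, the gene of the PA200 cap, was the lowest relative to cancer-like cells (-0.77 ± 0.11), ahead of Psmd7 (-0.75 ± 0.10), Psmc1 (-0.72 ± 0.11), Psma6 (-0.64 ± 0.10), Psma3 (-0.61 ± 0.10) and Psmc5 (-0.53 ± 0.11). The 20 not called were Psma1, Psma2, Psma4, Psma5, Psmb1, Psmb2, Psmb3, Psmb4, Psmb10, Psmc3, Psmd5, Psmd6, Psmd8, Psmd10, Psmd13, Psmd14, Psmf1, Psmg1, Psmg2 and Psmg4. By part, 5 of 6 base ATPases, 8 of 14 non-ATPases and 3 of 7 genes in each of the alpha and constitutive beta rings were lower.

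Dendritic cell-like cells were compared with macrophage-like cells, since both present antigen. They exceeded them in the induced genes, with Psmb9 higher by 2.03 ± 0.14, Psmb8 by 1.59 ± 0.13, Psme1 by 1.44 ± 0.13 and Psme2 by 1.33 ± 0.15 on the log2 scale. Psmb10 differed by -0.19 ± 0.16 and was not called (edgeR, adjusted p = 0.398). Of the 46 members tested, 15 were higher and 2 lower, against 15.3% higher and 20.3% lower of all 12285 genes. Here the barrel rose with the induced genes, in 6 of 7 tested alpha ring genes and 3 of 7 constitutive beta genes. Psma4 (0.89 ± 0.15), Psma3 (0.74 ± 0.16), Psmb7 (0.74 ± 0.17) and Psmb5 (0.60 ± 0.16) led these. Of the regulatory particle, 1 of 6 base ATPases was higher and none of the 14 non-ATPases, as judged by edgeR's adjusted p. Psme4 (-0.55 ± 0.20) and Psmd8 (-0.41 ± 0.16) were lower, and both calls were lost with DESeq2. The count of called members fell from 17 to 10 without OE-Vector 1 and likewise to 10 without OE-MLKL 3, the libraries with the most dendritic cell-like cells, while the share of all genes called fell from 35.6% to 27.2% and 26.2%. With 1 marker more per gate, 10 members were higher and 2 lower, while 34.9% of all genes were called. In OE-MLKL 1 and 2, 20 of 33 and 19 of 38 dendritic cell-like cells carried just 3 markers.

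**Figure D2:**
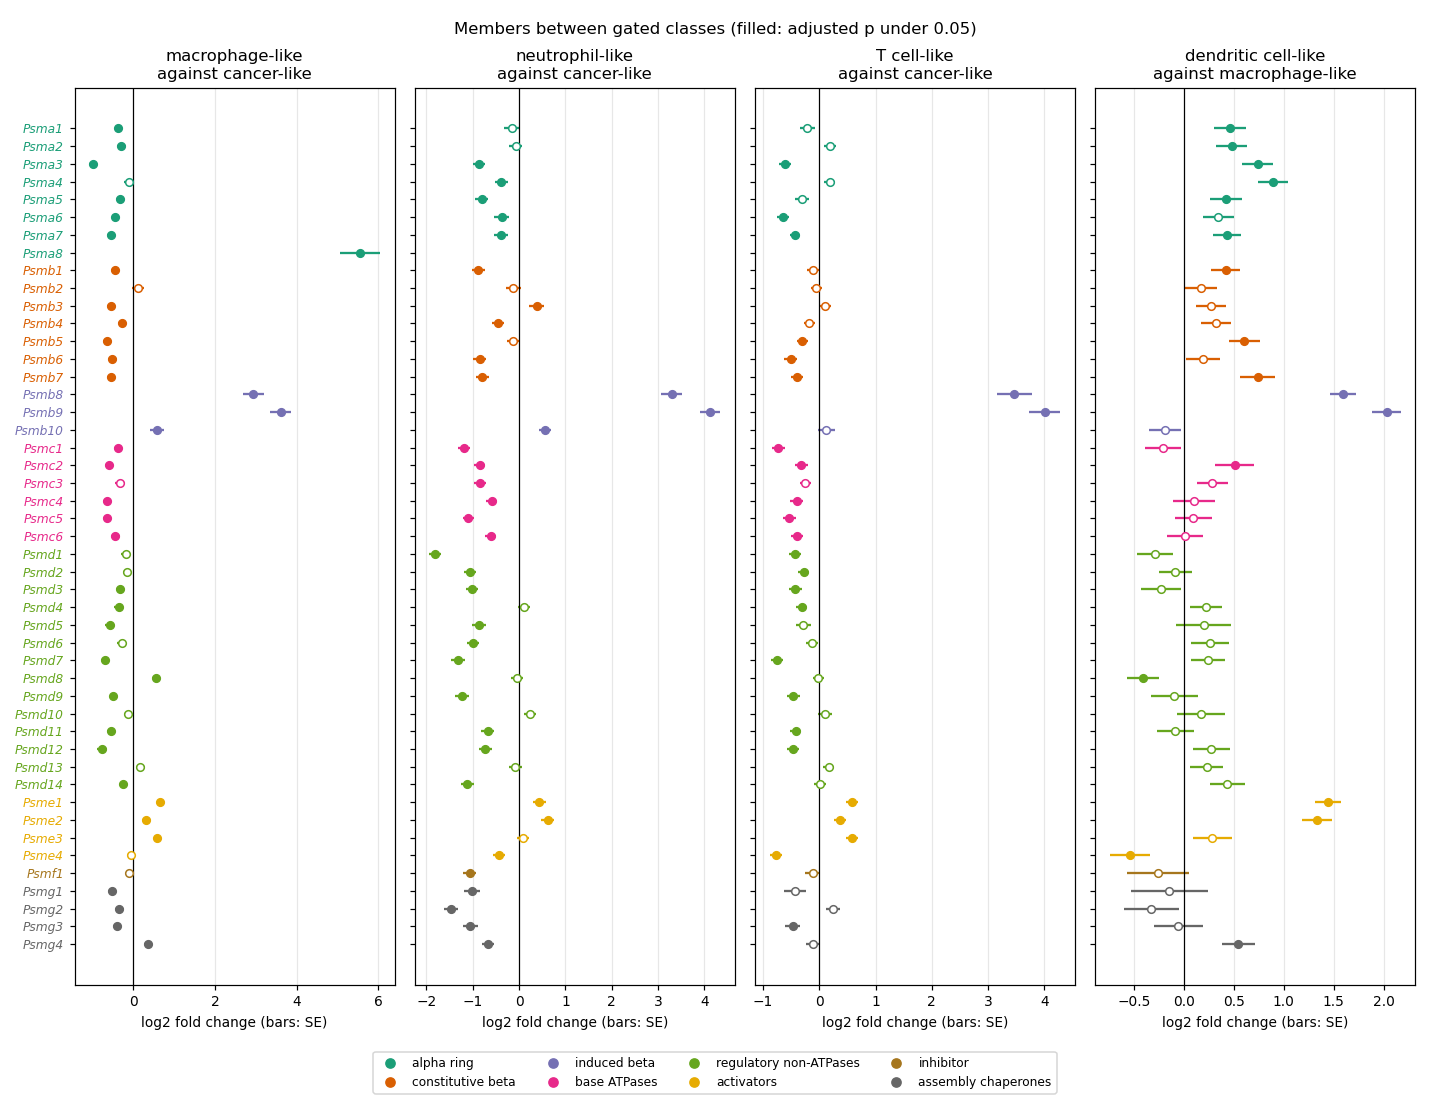
Fitted log2 fold changes (points, with bars of 1 SE) of each tested member in 4 class comparisons, coloured by part of the complex and filled where the adjusted p was under 0.05. Psmb8 and Psmb9 stand to the right in every panel, and the base ATPases and non-ATPases lie mostly to the left in the 3 panels against cancer-like cells. Psma8 in the first panel rests on 54 against 7 UMIs.

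The exchange of catalytic subunits was expressed as the share of the induced gene in the UMIs of its pair, which does not depend on scaling. For Psmb8 over Psmb8 plus Psmb5 the share was 25.7%, 10.4%, 10.3% and 36.5% in cancer-like cells and 72.1%, 69.6%, 70.1% and 80.6% in macrophage-like cells. OE-MLKL 1 and 2 were alike and low among the cancer-like cells, and the 2 classes did not overlap. The means were 70.5% ± 7.89 in neutrophil-like, 75.6% ± 2.99 in T cell-like and 84.5% ± 2.72 in dendritic cell-like cells. For Psmb9 over Psmb9 plus Psmb6 the share was 9.92%, 2.46%, 2.82% and 11.4% in cancer-like and 53.2%, 45.1%, 43.9% and 58% in macrophage-like cells. Cancer-like cells thus carried mostly Psmb6 transcripts in every library. The means of the other classes were 63.4% ± 12.8 in neutrophil-like, 56.7% ± 9.56 in T cell-like and 78.2% ± 5.92 in dendritic cell-like cells.

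The share of Psmb10 over Psmb10 plus Psmb7 was high already in cancer-like cells, at 53.1%, 27.4%, 40.4% and 49.4%, and 65.5%, 55.9%, 63.7% and 61.8% in macrophage-like cells. The cancer-like values of OE-Vector 1 and OE-MLKL 3 came close to the lowest macrophage-like value. Macrophage-like minus cancer-like differences were 52.3 ± 8.26 percentage points for Psmb8, 43.4 ± 2.38 for Psmb9 and 19.1 ± 8.06 for Psmb10. For neutrophil-like minus cancer-like cells the Psmb8, Psmb9 and Psmb10 differences were 49.7 ± 5.13, 56.8 ± 8.24 and 22.1 ± 2.57 points, and for T cell-like minus cancer-like cells 54.9 ± 10.4, 50.1 ± 4.98 and 8.77 ± 4.73 points. All of these were positive in 4 of 4 libraries. An exact sign-flip permutation test over 4 libraries gave p = 0.125 for each, two-sided, which is the smallest it allows, and 0.147 after Benjamini-Hochberg adjustment over the 20 differences tested.

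In dendritic cell-like cells the Psmb10 share went the other way from the Psmb8 and Psmb9 shares. Relative to macrophage-like cells their Psmb8 share was higher by 11.4 ± 2.69 points and their Psmb9 share by 28.2 ± 6.36 points in 4 of 4 libraries. Their Psmb10 share differed by -14.5 ± 5.52 points and was lower in 4 of 4 libraries, and the exact sign-flip p was 0.125 for all 3. Neutrophil-like and macrophage-like cells differed in the Psmb9 share by 13.4 ± 6.95 points, higher in 4 of 4 libraries. Their Psmb8 share differed by -2.62 ± 3.63 points, higher in 1 of 4, and their Psmb10 share by 2.97 ± 5.79 points, higher in 2 of 4, with exact sign-flip p-values of 0.375 and 0.5.

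**Figure D3:**
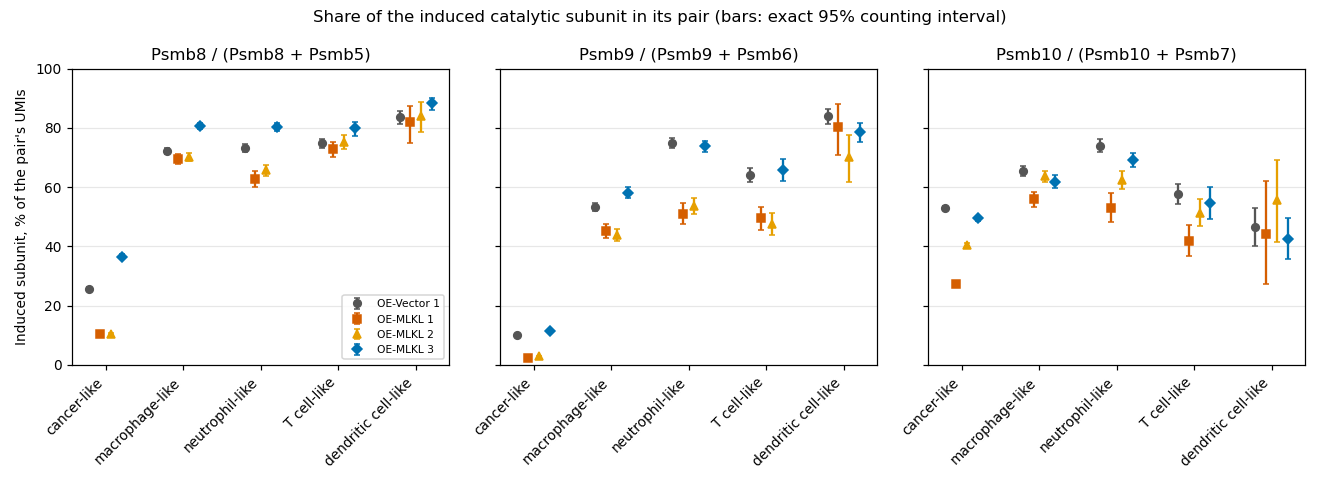
Share of the induced catalytic subunit in the UMIs of its pair, in percent, by gated class and library, with exact 95% binomial intervals for counting error. The Psmb8 and Psmb9 shares of cancer-like cells stay at or below 36.5% in every library, whereas the Psmb10 share reaches 53.1% there.

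The balance of regulatory to core particle transcripts was lower in neutrophil-like than in cancer-like cells and in dendritic cell-like than in macrophage-like cells. For the other host classes it depended on whether the induced beta genes were counted in the core. The summed UMIs of the Psmc and Psmd genes over those of all Psma and Psmb genes gave ratios of 0.538, 0.639, 0.628 and 0.724 in cancer-like and 0.482, 0.602, 0.606 and 0.657 in macrophage-like cells. Neutrophil-like cells had ratios of 0.350, 0.434, 0.416 and 0.412. T cell-like cells had 0.437, 0.472, 0.483 and 0.553. Neutrophil-like cells were below cancer-like, macrophage-like and T cell-like cells in each library. Dendritic cell-like cells had the lowest mean, at 0.295, 0.392, 0.385 and 0.387. The mean log2 ratio of the ratios was -0.11 ± 0.050 for macrophage-like over cancer-like, -0.65 ± 0.11 for neutrophil-like over cancer-like, -0.38 ± 0.057 for T cell-like over cancer-like and -0.69 ± 0.062 for dendritic cell-like over macrophage-like cells. Each was lower in 4 of 4 libraries. With the induced beta genes left out of the core sum, a choice made after seeing the data, the ratios were 0.577, 0.653, 0.653 and 0.780 in cancer-like, 0.626, 0.725, 0.758 and 0.867 in macrophage-like and 0.515, 0.510, 0.519 and 0.607 in neutrophil-like cells. T cell-like cells then had 0.582, 0.578, 0.616 and 0.729 and dendritic cell-like cells 0.488, 0.562, 0.571 and 0.611. The macrophage-like difference changed sign, to 0.16 ± 0.041, and was higher in 4 of 4 libraries. The T cell-like difference shrank to -0.086 ± 0.076 and was lower in 3 of 4, with OE-Vector 1 the exception. Neutrophil-like cells stayed below cancer-like cells (-0.30 ± 0.093) and dendritic cell-like below macrophage-like cells (-0.41 ± 0.066) in 4 of 4 libraries. The exact two-sided sign-flip p was 0.125 for each difference of 4 in 4, the smallest it allows, and 0.143 after Benjamini-Hochberg adjustment over the 8 differences, while the T cell-like difference without the induced genes had 0.25 before and after adjustment. OE-Vector 1 had the lowest ratio of the 4 libraries in each of these 5 classes with all core genes, but not in neutrophil-like and T cell-like cells without the induced ones, where OE-MLKL 1 was lowest. This comparison of 1 against 3 cannot give an exact permutation p below 0.25.

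**Figure D4:**
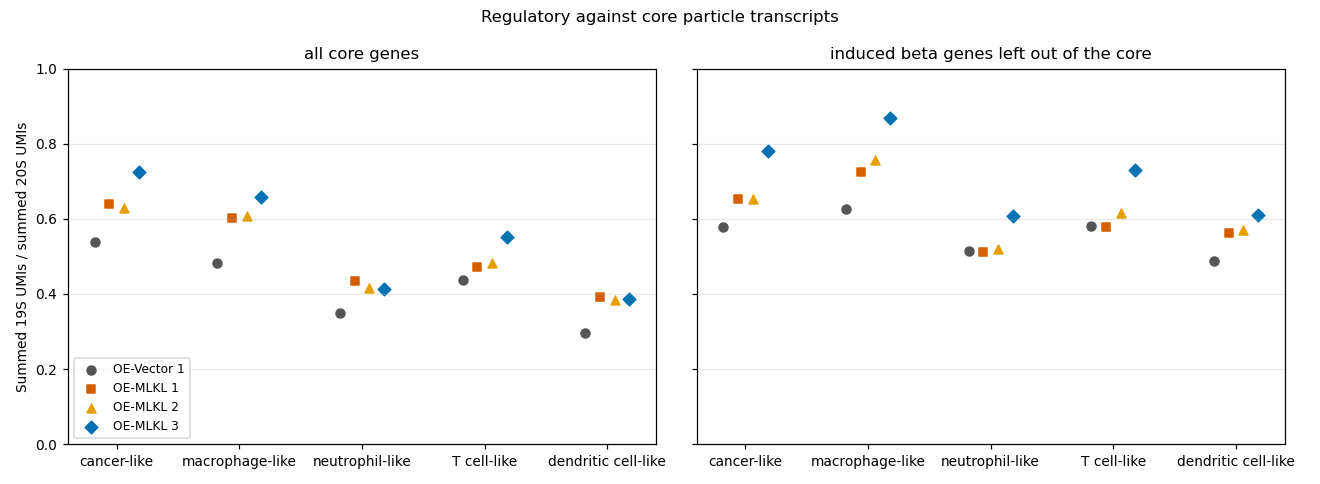
Summed UMIs of the regulatory particle genes over the summed UMIs of the core particle genes, by gated class, with 1 point per library, counting all core genes (left) or leaving out the induced beta genes (right). The cancer-like and macrophage-like means are 0.632 and 0.587 on the left and 0.666 and 0.744 on the right, and the neutrophil-like mean is below both in either panel.

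Transcripts that mark other classes were present in every class. In cancer-like cells the summed macrophage markers reached 1.05%, 0.613%, 0.792% and 1.88% of their level in macrophage-like cells, with none of the 10 at 0, and the neutrophil markers 0.532%, 0.228%, 0.350% and 0.801% of theirs. Psmb8 in cancer-like cells stood at 20.8%, 10.6%, 9.40% and 25.1% of its macrophage-like level and Psmb9 at 13.4%, 6.05%, 6.40% and 15.3%. OE-MLKL 3 was the highest library in all 4 of these measures, and Psmb8 and Psmb9 exceeded the marker shares in every library. The classes were set by these markers and cells that passed a second gate were left out, which lowers the marker shares. Setting Psmb8 and Psmb9 against them therefore does not measure transcripts from other cells. Conversely, the 13 cancer markers in neutrophil-like cells reached 10.5% to 16.7% of their cancer-like level, in macrophage-like cells 7.99% to 11.6%, in T cell-like cells 4.92% to 10.7% and in dendritic cell-like cells 7.38% to 15.1%. In T cell-like cells the 8 NK cell markers, of which 1 or 2 per library were at 0 and cytotoxic T cells express some too, reached 32.7%, 15.5%, 16.7% and 23.6% of their NK cell-like level. In barcodes with at most 100 UMIs, taken as free RNA, Psmb8 stood at 199, 72.2, 92.8 and 178 CPM and Psmb9 at 87.1, 29.9, 32.9 and 70.0 CPM, and Psmb5 at 192, 159.8, 186 and 127 CPM. The part of free RNA and of mixed droplets in the class differences was not tested.

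The genes around the proteasome were described from 4 lists. Their counts stand against all-gene shares of 31.6% higher and 36.5% lower in macrophage-like, 34.8% and 40.4% in neutrophil-like and 26.5% and 33.1% in T cell-like against cancer-like cells, and 15.3% and 20.3% in dendritic cell-like against macrophage-like cells. Of 13 interferon regulators, 12 were higher and 1 lower in macrophage-like than in cancer-like cells, led by Irf8 (6.33 on the log2 scale), a factor of myeloid development. All 13 were higher in neutrophil-like cells, led by Irf2 (2.99). In T cell-like cells 7 were higher and 3 lower. The class I coactivator gene Nlrc5 was higher by 1.08, 1.98 and 1.98 in the 3 classes. The median of this list was 1.01, 1.78 and 0.56, against -0.092, -0.16 and -0.081 over all genes.

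Of 11 genes of class I peptide supply, 9 were higher and none lower in macrophage-like cells by edgeR's adjusted p. In neutrophil-like cells 7 were higher and 3 lower, and in T cell-like cells 6 were higher and 4 lower, where the share of lower genes was near that of all genes. The transporter gene Tap1, the neighbour of Psmb8 and Psmb9, was higher by 2.65, 3.08 and 2.66, and Tap2 by 1.64, 2.74 and 2.34. The lower genes were chaperones of the endoplasmic reticulum, such as Canx (-1.06 in neutrophil-like and -0.87 in T cell-like cells). In dendritic cell-like against macrophage-like cells Tap1 (1.27) and Tap2 (1.49) rose again, while 3 genes of the list were higher and 4 lower.

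Of 17 tested genes of proteasome control, 6 were higher and 6 lower in macrophage-like cells, 5 and 8 in neutrophil-like cells, 2 and 9 in T cell-like cells, and 2 and 3 in dendritic cell-like against macrophage-like cells. Except in T cell-like cells these shares were close to those of all genes, so the list as a whole did not stand apart. Nfe2l1, the factor that raises subunit genes when proteasomes fail, was lower by 0.97, 1.39 and 1.64 in macrophage-like, neutrophil-like and T cell-like cells. Ddi2, the protease that activates its product, was higher in macrophage-like cells (2.21). Pomp, the chaperone of immunoproteasome and standard barrel assembly, was higher in dendritic cell-like than macrophage-like cells (1.11) and lower in neutrophil-like than cancer-like cells (-0.56).

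Of 10 interferon-induced reference genes, 5 were higher and 3 lower in macrophage-like cells, 6 higher and none lower in neutrophil-like cells, and none higher and 8 lower in T cell-like cells, by edgeR's adjusted p. The share of lower genes in macrophage-like cells was near that of all genes. Rsad2 led in neutrophil-like cells (5.62) and Cxcl9 in macrophage-like cells (3.65), whereas Ifit3 fell most in T cell-like cells (-2.62). In dendritic cell-like against macrophage-like cells 9 of the 10 were lower, led by Cxcl10 (-3.28), while Psmb8 and Psmb9 were higher. In T cell-like and dendritic cell-like cells Psmb8 and Psmb9 thus stood on the other side of the comparison from most of these genes.

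The libraries labelled OE-MLKL were then compared with the library labelled OE-Vector within each class by edgeR's quasi-likelihood test. The spread came from the 3 OE-MLKL libraries alone, with 2 residual degrees of freedom, and the lone OE-Vector library was assumed to vary like them. No member was called in any of the 4 classes. The background was 0.00597% of 16763 genes called in cancer-like cells, 0.0298% of 13430 in macrophage-like cells, 0% of 12707 in neutrophil-like cells and 0.0647% of 10818 in T cell-like cells. At an unadjusted p under 0.05 the edgeR fits had 2, 4, 1 and 0 members in these classes, against 4.31%, 6.05%, 8.15% and 5.09% of all genes, and DESeq2 called 0 members in each.

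In cancer-like cells all 5 induced members had negative fitted values for the OE-MLKL label. Psmb9 stood at -1.59 ± 0.55 (edgeR, unadjusted p = 0.0261, adjusted p = 1) and Psmb8 at -1.12 ± 0.56. Psmb10 (-1.06 ± 0.45), Psme2 (-0.77 ± 0.33) and Psme1 (-0.45 ± 0.33) had the same sign. The groups did not overlap for Psmb9 and Psmb8, but OE-MLKL 3 reached 77.5 CPM of Psmb8 against 80.7 CPM in OE-Vector 1, and only OE-MLKL 1 and 2 were far below. In the same cells the summed markers of each other class were also higher in OE-Vector 1 and OE-MLKL 3 than in OE-MLKL 1 and 2. The 12 T cell markers, none at 0, summed to 15.9, 5.32, 6.07 and 15 CPM, and the 8 NK cell markers, of which 0 to 3 were at 0, to 14.8, 5.16, 4.73 and 13.4 CPM. The 10 macrophage markers, none at 0, summed to 161, 88.7, 129.8 and 302 CPM. The 10 neutrophil markers, none at 0, summed to 79.9, 42.9, 50.6 and 148 CPM. In both of these sets OE-MLKL 3 lay above OE-Vector 1, whereas Psmb8 and Psmb9 were highest in OE-Vector 1. Psmb8 in free RNA stood at 199, 72.2, 92.8 and 178 CPM. Median depths of the cancer-like cells were 25132, 11793.5, 11461 and 20846 UMIs, from 2413, 5818, 5887 and 2836 cells. OE-Vector 1 and OE-MLKL 3 thus also held fewer and deeper cancer-like cells than OE-MLKL 1 and 2. The part of these markers, of free RNA and of depth and cell number in the label values of Psmb8 and Psmb9 was not tested. The median of the 5 was -1.06 against -0.24 for the 46 members tested and 0.029 for all genes. Psma1 was the other member with an unadjusted p under 0.05, at -0.88 ± 0.30, from 240.3, 132, 148 and 139 CPM, and OE-Vector 1 stood alone above the 3 OE-MLKL libraries. Without OE-MLKL 3, edgeR called 170 of 16251 genes (1.05%), among them Psmb9 (-2.17 ± 0.27, adjusted p = 0.0364) and Psmb8 (-1.73 ± 0.21, adjusted p = 0.0335), and these 2 of 46 tested members were the only ones called. That fit set 1 library against 2, with 1 residual degree of freedom, after removing the OE-MLKL library nearest to OE-Vector 1 in Psmb8. Without OE-MLKL 1 or 2 edgeR called no member, against 0.0061% and 0.0424% of all genes.

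All 5 induced members had negative values in the 3 host classes too, smaller in size than in cancer-like cells for Psmb8, Psmb9 and Psmb10, while Psme2 was further from 0 in macrophage-like and neutrophil-like cells. In macrophage-like cells Psmb9 stood at -1.07 ± 0.28 (edgeR, unadjusted p = 0.00757, adjusted p = 0.688) and Psme2 at -1.08 ± 0.35, and OE-Vector 1 had the highest level of both. Psma1 (-0.68 ± 0.26) and Psmb2 (-0.75 ± 0.28) were the other members with an unadjusted edgeR p under 0.05. In neutrophil-like cells Psmb9 stood at -0.95 ± 0.37 and in T cell-like cells at -0.62 ± 0.33. The summed NK cell markers in T cell-like cells were also highest in OE-Vector 1, at 3191, 1119, 1086 and 2283 CPM, and their part in the T cell-like values was not tested. The medians of the 5 induced members were -0.67, -0.84 and -0.46 in macrophage-like, neutrophil-like and T cell-like cells, against -0.33, 0.031 and -0.022 for all tested members. Without OE-MLKL 3, edgeR called 2130 of 12020 genes (17.7%) in neutrophil-like cells, with Psmb9 (-1.18 ± 0.24, adjusted p = 0.000479), Psme2 (-1.12 ± 0.27, adjusted p = 0.00215), Psmb10 (-0.96 ± 0.26, adjusted p = 0.00672) and Psmd9 (1.16 ± 0.29, adjusted p = 0.00369) among them. These 4 of 46 tested members were a smaller share than that of all genes. In neutrophil-like cells too, no member was called by edgeR without OE-MLKL 1 or 2, against 1.36% and 0.07% of all genes. Leaving out OE-MLKL 3, it called no member in macrophage-like and T cell-like cells, where 143 (1.11%) and 615 genes (5.96%) were called.

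The libraries labelled OE-MLKL differed among themselves in cancer-like cells. The summed level of the 10 interferon-induced reference genes in cancer-like cells was 1138, 279, 417 and 989.6 CPM, and that of the class I peptide supply 5151, 2325, 2439 and 4270.1 CPM. OE-MLKL 1 and 2 were low in both, while OE-MLKL 3 was closer to OE-Vector 1. For Psmb10 and Psme2, in contrast, OE-MLKL 3 lay below OE-MLKL 2. The replacement share summed over the 3 pairs was 30.1%, 12.6%, 18.3% and 33.5% in cancer-like cells, so that OE-MLKL 3 lay above OE-Vector 1. The mean of the OE-MLKL libraries was 21.5% ± 10.8 (SD, n = 3), and the difference from OE-Vector 1 had an exact permutation p of 0.75, where the smallest p that 1 library against 3 allows is 0.25. No gene of the 4 lists was called for the label in any of the 4 classes by edgeR, where 2, 3, 0 and 5 genes had an unadjusted p under 0.05 in cancer-like, 2, 1, 1 and 6 in macrophage-like, 2, 1, 1 and 6 in neutrophil-like and 1, 0, 2 and 4 in T cell-like cells. These counts are in the order regulators, class I supply, proteasome control and reference genes. DESeq2, which called 0.531%, 0.603%, 0.551% and 0.139% of all genes in these classes, called Ifngr1 and Isg15 in cancer-like cells, Irf7 and Isg15 in macrophage-like cells and Isg15 and Ifit1 in neutrophil-like cells, all lower under the OE-MLKL label, and no list gene in T cell-like cells. The list medians in cancer-like cells were -0.44 for the interferon regulators, -0.86 for class I peptide supply, -0.14 for proteasome control and -1.20 for the reference genes. With 1 OE-Vector library the label and the tumour cannot be told apart.

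**Figure D5:**
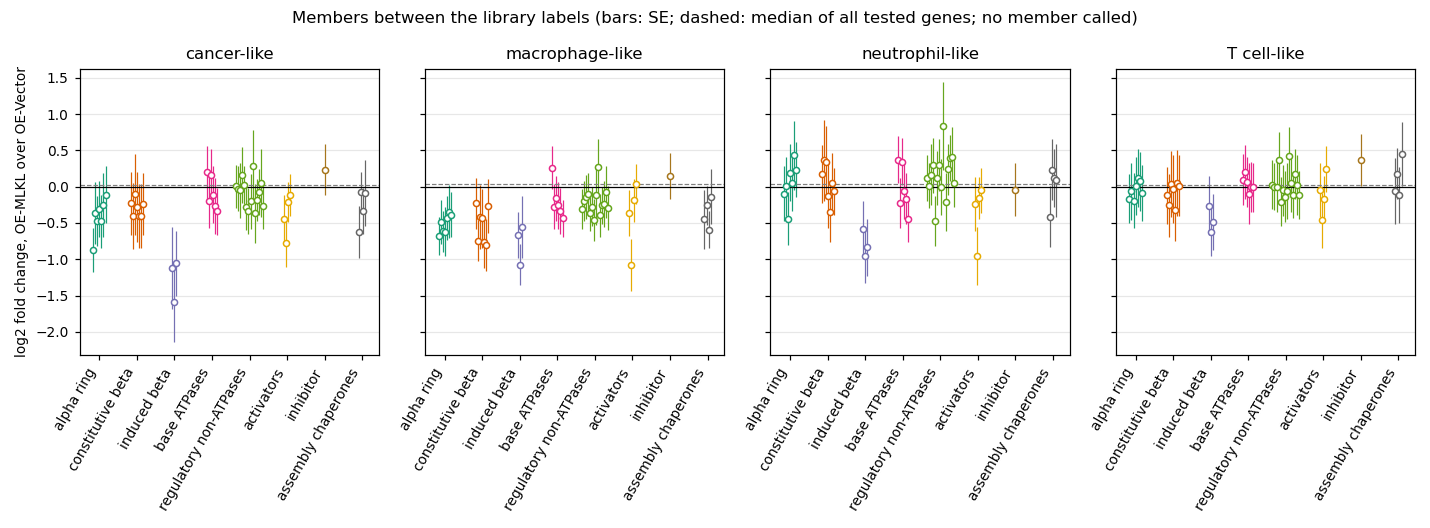
Fitted log2 fold changes of the members, libraries labelled OE-MLKL over the library labelled OE-Vector (points, with bars of 1 SE), by part of the complex in 4 classes. The dashed line marks the median of all tested genes. The induced beta genes lie below it in every panel, and no member was called.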

How the data were processed

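Single-cell suspensions of the tumours were profiled by droplet 3' RNA sequencing. The deposited matrices hold raw UMI counts per gene and barcode, made by the authors with Cell Ranger, whose version is 2.1.1 in the submitters' processing notes while the study's methods name a later one, on the mouse genome mm10. Replicates were not pooled, and whether intronic reads counted is not given in the sources used here. The matrices hold all barcodes, so cells were selected here by at least 500 UMIs, at least 200 genes, under 10% mitochondrial and at most 5% haemoglobin UMIs. The study's filter of genes and mitochondrial share alone left 17416 to 27961 barcodes per library. Doublets were scored against simulated doublets (2000 variable genes, 10 principal components, 30 neighbours), and the highest scores were removed at 0.8% per 1000 cells, which took 1893 to 4255 cells per library. A marker was present at 1 UMI or more per 10000, and a class needed at least 3 markers of exactly 1 gate. That number was set with the data in view. In all 5 compared classes each library showed its own markers at the highest summed level. The gates select for these same markers, so this is no independent check of the classes.

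The UMIs of each class were added up within a library, and these sums were tested with edgeR 4.0.16 (limma 3.58.1, R 4.3.3) by glmQLFit and glmQLFTest after filterByExpr and TMM, and with DESeq2 1.42.0 as an alternative. Shares of subunit pairs were compared by exact permutation tests (SciPy 1.17.1, NumPy 2.4.6, pandas 2.3.3, scikit-learn 1.9.0, Python 3.11.15). Intervals are exact Clopper-Pearson at 95% and cover counting error only. The fitting scripts were tested on simulated counts with known changes. The members, marker genes and lists were chosen with earlier results of these data known. Values in every library are given for the 5 induced members and the counterparts Psmb5, Psmb6, Psmb7 and Psme3, called members are named up to the 6 largest changes in each direction, and the most and least abundant member of each part is named. The lists were interferon regulators, class I peptide supply, proteasome control and partners, and interferon-induced reference genes. Alternatives were another tool, scaling, low-count filter, cell filter, doublet treatment and marker number, no library term, and leaving out each library. Gene positions are from the GENCODE annotation of GRCm38, and promoters from RefSeq.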

Additional observations from a re-analysis of the deposited data

Results flagged for a closer look

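For 6 members outside the induced subset, every OE-MLKL library lay above the OE-Vector library in one cell class and below it in another. The values are log2 ratios of the mean CPM of the 3 OE-MLKL libraries over the CPM of OE-Vector 1, and the difference between classes was not tested. Psma7, the most abundant alpha ring gene, stood at -0.27 in macrophage-like and 0.42 in neutrophil-like cells. Psmd1, the base scaffold, stood at 0.10 in cancer-like, -0.19 in macrophage-like and 0.31 in neutrophil-like cells. Psmd7 of the lid stood at -0.24, -0.34 and 0.49 in the same classes, and Psmg3, an assembly chaperone gene, at -0.25, -0.48 and 0.31. Psmd11 of the lid stood at -0.14 in macrophage-like and 0.43 in neutrophil-like cells. The chaperone gene Psmg2 stood at -0.14 in macrophage-like, 0.43 in neutrophil-like and 0.21 in T cell-like cells. The 6 were picked for opposite signs, and the share of all genes with such signs was not counted. In cancer-like, macrophage-like, neutrophil-like and T cell-like cells, OE-Vector 1 lay above all 3 OE-MLKL libraries for 18, 24, 7 and 7 members. It lay below all 3 for 5, 2, 16 and 6 of the 48. The shares of all genes above or below all 3 were not counted. These counts are therefore not a result about the members. Of all tested members the edgeR values were positive for 25 and negative for 21 in neutrophil-like cells, and positive for 5 and negative for 42 in macrophage-like cells. CPM ratios carry no TMM factor. Scaled by library size alone, the median of all genes was 0.24 in neutrophil-like, 0.16 in macrophage-like, 0.14 in cancer-like and 0.061 in T cell-like cells. The cancer-like CPM ratio of Psmd1 thus lay below the all-gene median there. With TMM factors Psma7 stood at 0.23 ± 0.38 in neutrophil-like cells and Psmd1 at 0.0056 ± 0.30 in cancer-like cells.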

How the results depend on the processing

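The members followed across settings were the 5 induced ones, and for the classes also the named called ones. Psmd9 is thus not among them for the label. Of 785 alternative values, 725 kept their direction and their side of the threshold, 54 lost the call, 5 gained it and 1 reversed. The reversed value was Psmb10, T cell-like against cancer-like cells, at -0.038 without OE-MLKL 1 and at up to 0.28 without OE-Vector 1. Class and label values are pooled in these counts. No label value was called in the main fits, so none could lose a call, and all losses were among the class values. Without the library term 13 members were called in macrophage-like (37 with it), 9 in T cell-like (26 with it) and 5 in dendritic cell-like cells (17 with it), while the share of all genes called was 53.5% (68.1% with it), 51.1% (59.6%) and 25.6% (35.6%). Leaving out 1 library gave 10 to 14 called members in dendritic cell-like cells, 0 to 2 for the label in cancer-like and 0 to 4 in neutrophil-like cells, and the highest label counts were both without OE-MLKL 3. With doublets kept, the summed neutrophil-like minus cancer-like share was 42.6 points against 43.8. With every gene of at least 1 UMI tested, the members' median relative to all genes moved from -0.24 to -0.081 in macrophage-like, from -0.51 to -0.25 in neutrophil-like, from -0.20 to 0.12 in T cell-like and from 0.34 to 0.64 in dendritic cell-like cells, since the sparse genes added change the median of all genes. With the induced beta genes left out of the core sum, added after seeing the data, the log2 regulatory to core ratio went from -0.11 to 0.16 for macrophage-like, from -0.65 to -0.30 for neutrophil-like and from -0.38 to -0.086 for T cell-like over cancer-like cells, and from -0.69 to -0.41 for dendritic cell-like over macrophage-like cells, which follows from the genes removed. The causes of the other shifts were not tested.

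Counts over all genes for the label varied widely. edgeR called 1 gene in cancer-like cells and DESeq2 89, 4 and 81 in macrophage-like, 0 and 70 in neutrophil-like, and 7 and 15 in T cell-like cells. With every gene of at least 1 UMI tested, edgeR called 41, 44 and 115 in the last 3. Leaving out OE-MLKL 1, 2 or 3 gave 1, 7 and 170 in cancer-like, 103, 8 and 143 in macrophage-like, 175, 9 and 2130 in neutrophil-like and 38, 56 and 615 in T cell-like cells. With 1000 UMIs and 500 genes per cell the counts were 7 in macrophage-like and 2 in neutrophil-like cells, and T cell-like cells had 11 with doublets kept and 1 with 4 markers per gate. Library size alone left 0 in cancer-like cells. Without the library term, 2905 genes were called in dendritic cell-like cells against 4371 with it. No paired analysis was possible because the labelled groups with matrices share only replicate number 1. Psmb11 and Psma8 had few UMIs and the small classes few cells, which limited what could be said of them.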

Other observations

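The sparse classes had 5 to 117 cells per library and were described from UMIs pooled over the 4 libraries, with no test. The share of Psmb8 in the UMIs of Psmb8 and Psmb5 was 73.8% (68.5% to 78.6%) in NK cell-like, 68.3% (61.8% to 74.3%) in B cell-like, 61.5% (57% to 65.9%) in endothelial-like and 54.4% (48.4% to 60.2%) in fibroblast-like cells. The share of Psmb9 with Psmb6 was 51.7% (43.2% to 60.2%), 54.5% (45.7% to 63.1%), 46.2% (40.5% to 52%) and 21% (15.4% to 27.5%) in the same order, and that of Psmb10 with Psmb7 76.4% (68% to 83.5%), 52.9% (42.8% to 62.8%), 57.6% (51.1% to 63.8%) and 56% (47.7% to 64.1%). The pools weight the libraries by their UMIs, so that OE-MLKL 3 gave the most UMIs of these 6 genes in NK cell-like and OE-Vector 1 in B cell-like and endothelial-like cells, and the order of the classes differed between libraries. The Psmb8 share of single libraries ran from 41% to 75.6% in fibroblast-like and from 58.8% to 62.4% in endothelial-like cells, above the highest cancer-like share of 36.5%. Median depths differed between these classes and the cancer-like cells. Free RNA was measured per library and not per class, and the part of either in the shares was not tested.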
